A study of Mus musculus with 5 samples.

Results

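*Kit* and *Csf2rb2* encode a pair of growth factor receptors, and they were chosen by name from the authors' list of differentially expressed genes, so they are 2 of the 1355 genes in that list. Bulk RNA-seq was performed on bone marrow-derived dendritic cells (BMDCs) from 3 *Irf8*-OE and 2 control samples of 8-week-old mice on the C57BL/6 background. The *Irf8*-OE genotype is *Irf8* CAG-LSL *Itgax* Cre, in which a Flag-tagged *Irf8* cassette at the H11 locus is driven by the CAG promoter once Cre, expressed from *Itgax* in CD11c+ cells, has removed a stop cassette. The study gives the controls as *Irf8* CAG-LSL without Cre, whereas the sample labels call them wild type. Marrow of every group was grown with 5 ng/ml GM-CSF and 200 ng/ml Flt3L, replated on day 9 and collected on days 15 to 16 as non-adherent cells, and the labels list TNF-α stimulation, given at 20 ng/ml, for all 5 samples. The labels do not say whether the samples came from separate mice, so the spread between them may be technical.

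KIT is the receptor tyrosine kinase for stem cell factor, the product of *Kitl*. It is carried by haematopoietic stem and progenitor cells and is lost as most lineages mature, while mast cells keep it. CSF2RB2 is the mouse beta chain that serves IL-3 alone, and its neighbour CSF2RB is the common beta chain shared by the receptors for IL-3, IL-5 and GM-CSF. Neither beta chain has kinase activity of its own, and signalling runs through JAK2 and STAT5 to genes such as *Socs1* and *Pim2*. GM-CSF and Flt3L, the ligands supplied in these cultures, act through CSF2RA with CSF2RB and through FLT3, which belongs to the same class of receptor tyrosine kinases as KIT.

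*Kit* (ENSMUSG00000005672) lies on the plus strand of chromosome 5 from 75574916 to 75656722 in GRCm38, and its principal transcript in GENCODE vM21 has 21 exons and 979 codons. *Csf2rb2* (ENSMUSG00000071714) lies on the minus strand of chromosome 15 from 78282507 to 78305721, with 14 exons and 878 codons. *Csf2rb*, on the plus strand from 78325752 to 78353847, points away from it across a gap of 20030 bases that holds 0 annotated genes. Because these paralogs are close in sequence, their annotated sequences were compared for stretches where a read could have come from either. The reads themselves were not examined. Their coding sequences were identical at 95.2% of 2628 aligned bases, and the longest identical run was 242 bases. Untranslated and gapped stretches were left out when windows of this alignment were compared. A gap-free 90-base stretch of the aligned coding sequences with the most mismatches, 16, is shown with the differing bases in capitals. It covers coding bases 311 to 400 of *Csf2rb2* and 308 to 397 of *Csf2rb*.
Csf2rb2: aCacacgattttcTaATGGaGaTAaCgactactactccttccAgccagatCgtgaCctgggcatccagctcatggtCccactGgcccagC
Csf2rb: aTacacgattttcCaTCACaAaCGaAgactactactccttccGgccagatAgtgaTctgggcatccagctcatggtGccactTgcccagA

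**Figure D1:**
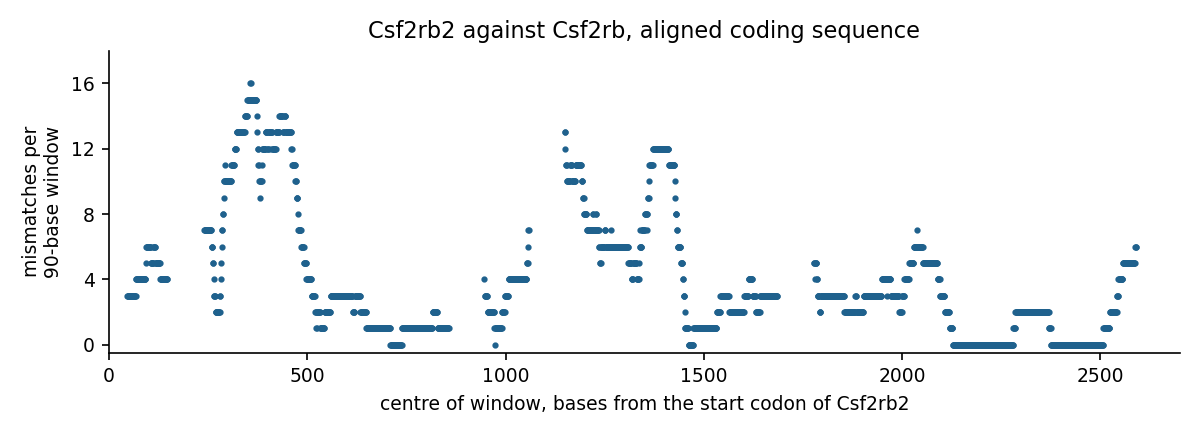
Mismatches between Csf2rb2 and Csf2rb in each gap-free 90-base window of the aligned coding sequences (vertical axis, number of bases) by the position of the window from the start codon of Csf2rb2 (horizontal axis, bases). The median window has 3 mismatches, the richest has 16, and 327 of 2183 windows have 0, most of them toward the end of the coding sequence.

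Of all 150-base windows of the *Csf2rb2* transcript, the length of a sequenced read, 165 of 4591 (3.59%) also occurred exactly in a transcript of *Csf2rb*, and at 50 bases the share found in any other gene was 19.4%. For *Kit*, 0 of 5065 windows of 150 bases occurred in another gene. How the authors' counting treated reads that fit both paralogs is not given in the sources used here, so a part of the *Csf2rb2* value could belong to *Csf2rb*, which is not among the listed genes and is not analysed here. *Mir7676-1* lies inside *Csf2rb2* on the same strand, and no annotated gene overlaps *Kit*.

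The stretches just before both genes are shown because both were lower in *Irf8*-OE BMDCs. They come from RefSeq promoter windows on GRCm38.p6, read in the direction of the gene (*Kit*, plus strand, chr5:75574737-75574915, and *Csf2rb2*, minus strand, chr15:78305722-78305971), and capitals mark a match to a searched motif.
Kit: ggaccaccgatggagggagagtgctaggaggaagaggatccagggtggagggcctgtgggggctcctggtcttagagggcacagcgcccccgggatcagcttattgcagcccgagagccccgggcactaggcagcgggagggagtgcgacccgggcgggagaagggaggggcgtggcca
Csf2rb2: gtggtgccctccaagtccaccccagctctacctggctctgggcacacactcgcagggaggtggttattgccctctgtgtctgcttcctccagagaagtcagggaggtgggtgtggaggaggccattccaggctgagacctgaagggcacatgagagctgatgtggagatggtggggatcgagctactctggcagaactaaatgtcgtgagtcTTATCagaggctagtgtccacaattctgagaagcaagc

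For *Kit* the last 71 of 250 bases before the RefSeq start lie inside the GENCODE gene and are not printed, but they were searched. *Kit* has 2 promoter windows in this reference, and the matches given for *Kit* cover only the first. The motif GATAA, the core that GATA factors recognise, was searched on both strands and matched once in *Csf2rb2*, on the opposite strand and starting 38 bases before the start, and 0 times in *Kit*. It was present in 22.6% of 32851 promoter windows. A composite of ETS and IRF sites, GGAA followed after NN by GAAA, and an IRF repeat, GAAA followed after NN by GAAA, were searched on both strands too. Neither can contain GATAA, and each had 0 matches in both windows, against a presence in 2.30% and 2.98% of all windows. The *Kit* window was rich in GC, at 70.8% with 17 CpG dinucleotides, while the *Csf2rb2* window held 56.4% GC and 3 CpG, against medians of 52.4% and 6 over all windows.

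The deposited values are normalized counts, that is the reads of a gene divided by a size factor of its library and not by gene length. The listed genes held between 646123 and 1062127 reads per sample, a count that leaves out all other genes of the library. Sex-linked genes went against the label of male mice, since *Xist* had between 10772 and 13476 normalized counts in *Irf8*-OE and at most 1.12 in the controls, while *Ddx3y*, *Eif2s3y*, *Kdm5d* and *Uty* had 0 normalized counts in each *Irf8*-OE sample and from 484 to 1385 in the controls. Sex-linked expression and genotype thus divided the samples alike and cannot be told apart in any value given here. *Irf8*, the overexpressed gene and a transcription factor of the dendritic cell and monocyte lineages, had 7141, 6519 and 6021 normalized counts in *Irf8*-OE and 2835 and 2747 in the controls, as its genotype label says.

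*Kit* had 8067 and 7541 normalized counts in the 2 control samples and 2667, 2848 and 2923 in the 3 *Irf8*-OE samples. Every *Irf8*-OE sample was below both controls, and the groups stood far apart relative to their own spread. The groups did not overlap in 100% of the listed genes, so this separation came with the choice from the list. The mean was 2812 ± 132 (SD, n = 3) in *Irf8*-OE against 7804 ± 372 (SD, n = 2) in the controls, which is 36.0% of the control level, or 2.77-fold lower. On the scale of log2(normalized counts + 1) the difference was -1.47 (standard error 0.06 from limma).

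*Csf2rb2* had 37485 and 38222 normalized counts in the controls and 18160, 17820 and 17395 in *Irf8*-OE. By normalized counts it was second among the 1355 listed genes in each of the 5 samples, behind the mast cell protease gene *Cpa3*. Per kilobase of gene length *Csf2rb2* ranked 5 in both controls and 8, 8 and 9 in *Irf8*-OE. The mean was 17792 ± 383 (SD, n = 3) in *Irf8*-OE against 37854 ± 521 (SD, n = 2) in the controls, which is 47.0% of the control level and a log2 difference of -1.09 (standard error 0.05 from limma). The values again did not overlap between the groups, as in 100% of the listed genes. The log2 difference lay close to the threshold of 1 by which the authors listed genes.

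**Figure D2:**
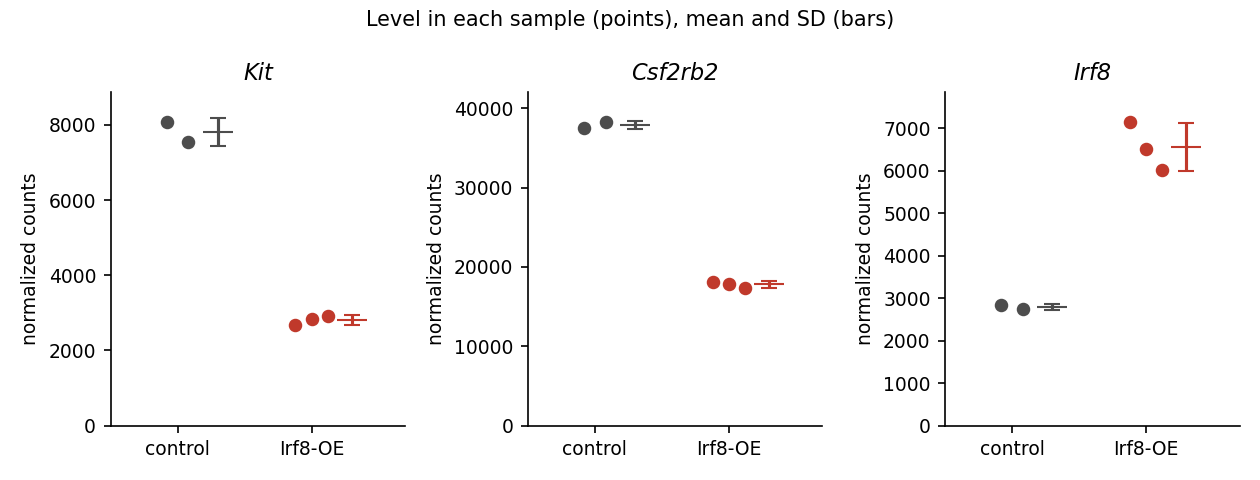
Normalized counts (vertical axes, linear from 0) of Kit, Csf2rb2 and Irf8 in the 2 control and 3 Irf8-OE samples, where each point is a sample, and the horizontal mark with its bar is the mean and SD. Kit and Csf2rb2 lie lower in every Irf8-OE sample than in either control, and Irf8 lies higher.

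These differences chose the genes and are therefore a description without a test. In the authors' list 99.1% of the 1355 genes were called by limma (adjusted p below 0.05 with a log2 difference beyond 1 in either direction), 41.0% as lower and 58.1% as higher, and the groups did not overlap in 100% of them, so nothing about *Kit* or *Csf2rb2* can be read from being among them. Of the 558 genes that were lower in *Irf8*-OE, 333 had a larger fall than *Kit* and 499 a larger fall than *Csf2rb2*, and the median log2 difference of the lower genes was -1.65. Both genes thus had smaller differences than most lower genes. In bulk samples, fewer cells of a type and less RNA per cell cannot be told apart.

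The direction for *Kit* was the same with every alternative scaling tried, with log2 differences from -1.78 to -1.0, whereas *Csf2rb2* was at 0 after quantile normalization, which gives genes of equal rank equal values and so fixes a gene that ranks second in every sample. With edgeR's scaling of the recovered reads *Csf2rb2* was at -1.40.

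The spread among replicates was small but larger than counting error. The SD of *Kit* was 2.53 times the SD expected from counting alone in *Irf8*-OE and 4.12 times in the controls, and that of *Csf2rb2* was 2.92 and 2.63 times. The lowest *Irf8*-OE value of *Kit* had a 95% exact Poisson interval of 2568 to 2768 and the highest an interval of 2817 to 3031, and such intervals cover counting error only. The *Irf8*-OE sample with the least *Kit* had the most *Csf2rb2*, and the sample with the most *Kit* had the least *Csf2rb2*. With 3 samples, this order cannot show whether the genes vary together within the group.

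Relative to gene length, *Csf2rb2* was the more abundant transcript in every sample. Over the authors' gene lengths of 8911 and 4740 bases, *Kit* had 876 ± 41.8 (SD, n = 2) normalized counts per kilobase in the controls and 316 ± 14.8 (SD, n = 3) in *Irf8*-OE, and *Csf2rb2* had 7986 ± 110.0 and 3753 ± 80.8. The level of *Csf2rb2* per kilobase was 8.74 and 9.53 times that of *Kit* in the controls, and 12.8, 11.8 and 11.2 times in *Irf8*-OE. The principal transcript of *Kit*, 5214 bases, is shorter than the authors' gene length and would raise the level per kilobase of *Kit*, but in all samples alike.

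The ratio of *Kit* to *Csf2rb2* within a library does not depend on its size factor. It was 0.215 and 0.197 in the controls and 0.147, 0.160 and 0.168 in *Irf8*-OE. All 3 *Irf8*-OE ratios were below both controls, and the log2 ratio differed by -0.38, so the *Kit* value was reduced further than the *Csf2rb2* value. Any reads of *Csf2rb* counted for *Csf2rb2* would enter this ratio, and their part was not tested. The difference between the ratios of the *Irf8*-OE samples was smaller than that between the groups, and since both genes were chosen from this contrast no test was applied.

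Among other receptors of these families, the listed ones differed in direction. Of the 5 class III receptor tyrosine kinases only *Kit* was listed, and *Flt3*, *Csf1r*, *Pdgfra* and *Pdgfrb* are not analysed here. Of the 5 genes for the beta chains and their alpha partners, *Csf2rb2* and *Il5ra* were listed, and both were called lower. Of all listed genes 99.1% were called and 41.0% were called lower. After quantile normalization *Csf2rb2* had a log2 difference of 0. *Il5ra*, the alpha chain of the IL-5 receptor, had 192 and 157 normalized counts in the controls and 19.2, 15.9 and 34.1 in *Irf8*-OE. Its log2 difference of -2.94 (standard error 0.33) was larger than that of *Csf2rb2* but rested on few reads.

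Of 9 further haematopoietic growth factor receptors, 2 were listed, and they differed in direction. *Il9r*, the IL-9 receptor of mast cells and T cells, fell from 363 and 368 normalized counts to 93.0, 78.4 and 70.3. *Csf3r*, the G-CSF receptor of the neutrophil lineage, rose from 155 and 140.1 to 378, 382 and 394. Ordered by the level left in *Irf8*-OE relative to control, *Il5ra* stood at 13.2%, *Il9r* at 22.1%, *Kit* at 36.0% and *Csf2rb2* at 47.0%, followed by *Csf3r* at 260.4%. Pairing each *Irf8*-OE sample with each control gave ranges that overlapped for *Il5ra* (8.26% to 21.7%) and *Il9r* (19.1% to 25.6%), but not for *Kit* (33.1% to 38.8%) and *Csf2rb2* (45.5% to 48.4%). Per kilobase *Csf2rb2* and *Kit* were also the most abundant of these 5 receptors in both groups, ahead of *Il9r* at 73.8 normalized counts per kilobase in the controls and *Csf3r* at 106.5 in *Irf8*-OE.

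**Figure D3:**
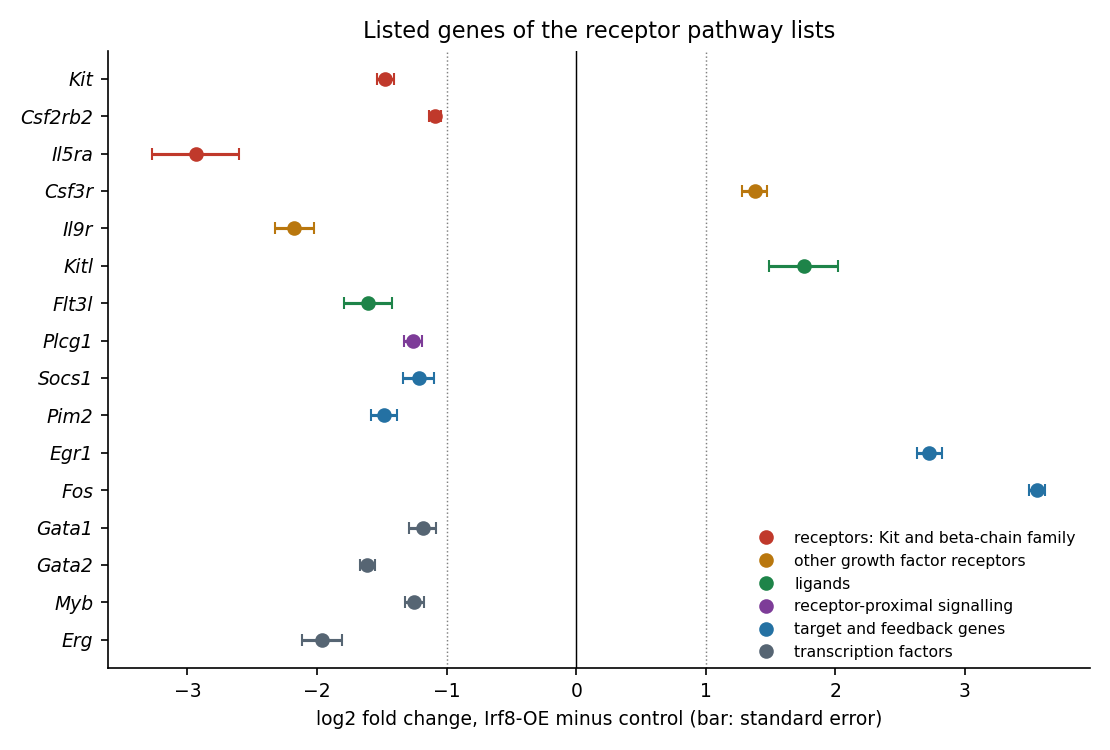
Log2 fold change of Irf8-OE minus control on log2(normalized counts + 1) with its limma standard error (horizontal axis) for 16 listed genes of the receptor pathway lists (vertical axis), coloured by role, with dotted lines at -1 and 1. Kit and Csf2rb2 lie at -1.47 and -1.09, and the values run from Il5ra at -2.94 to Fos at 3.55.

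Of 10 ligand genes 2 were listed, and they differed in direction. *Kitl*, the ligand of KIT, had 16.9 and 12.5 normalized counts in the controls and 42.2, 53.2 and 60.3 in *Irf8*-OE, and it was called higher with a log2 difference of 1.75 (standard error 0.27). *Kitl* is made by stromal cells, and of the 10 markers in the stromal cell list 5 were listed and all 5 were called higher, where 58.1% of all listed genes were called higher, with a summed level between 7695 and 8719 normalized counts in *Irf8*-OE and 1549.8 in both controls. The part of stromal RNA in the *Kitl* value was not tested. *Flt3l*, which encodes the cytokine that was also supplied in the medium, had 254 and 282 normalized counts in the controls and 70.0, 92.4 and 102 in *Irf8*-OE. Its log2 difference was -1.61 (standard error 0.18).

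Few genes downstream of the receptors were listed. Of 33 receptor-proximal signalling genes, which include *Jak2*, *Stat5a* and *Stat5b*, only *Plcg1* was listed, and it was called lower at 41.7% of control. *Plcg1* encodes a phospholipase C that receptor tyrosine kinases recruit. It had 1533 and 1572 normalized counts in the controls and 667, 619.9 and 657 in *Irf8*-OE. Of 26 target and feedback genes of STAT5 and MAPK signalling, 2 were called lower and 2 higher. *Socs1*, a cytokine-induced inhibitor of JAK kinases, fell from 1994 and 1865 to 826, 723 and 960.2. *Pim2*, a survival kinase induced by STAT5, had a log2 difference of -1.48 (standard error 0.10), close to that of *Kit*. The immediate early genes *Egr1* and *Fos* rose, with log2 differences of 2.72 and 3.55, so the list as a whole had no shared direction. All of the listed genes given here from the receptor, ligand, signalling and target lists were called, against 99.1% of all listed genes.

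Of 16 transcription factors of lineages that carry KIT, 4 were listed and all 4 were called lower, where 99.1% of all listed genes were called and 41.0% were called lower. The other 12 factors are not analysed here. *Gata2*, which is needed by stem cells, mast cells and basophils, had 6493 and 6373 normalized counts in the controls and 2166, 2018 and 2127 in *Irf8*-OE, 32.7% of control. *Gata1*, a factor of the erythroid, megakaryocyte, eosinophil and mast cell lineages, and *Myb*, a factor of progenitors, stood at 43.8% and 42.0% of control. *Erg*, an ETS factor of stem cells, stood at 25.6%. Their log2 differences, from -1.96 to -1.19, bracketed that of *Kit*.

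Mast cells carry KIT, and markers of that lineage were therefore set beside it. Of 15 mast cell markers 10 were listed and all 10 were called lower. After quantile normalization 9 were, since *Cpa3* ranks first in every sample and had a log2 difference of 0. Their summed level was between 32552 and 37147 normalized counts in *Irf8*-OE and between 244441 and 249457 in the controls. None of the 10 had 0 normalized counts in any sample. Of all listed genes 99.1% were called and 41.0% were called lower, and the other 5 markers are not analysed here. *Cpa3* stood at 12.6% of control, *Tpsb2*, a tryptase, at 16.8%, *Il1rl1*, the IL-33 receptor, at 15.3% and *Fcer1a*, the alpha chain of the high-affinity IgE receptor, at 26.2%. All 10 stood lower relative to control than *Kit* and *Csf2rb2* did, the highest being *Fcer1a*. The cultures were labelled as dendritic cells, and of 18 dendritic cell markers 2 were listed, *Itgae* as higher and *Cd209a* as lower. The part of a changed share of mast cells in the values of *Kit* and *Csf2rb2* was not tested.

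**Figure D4:**
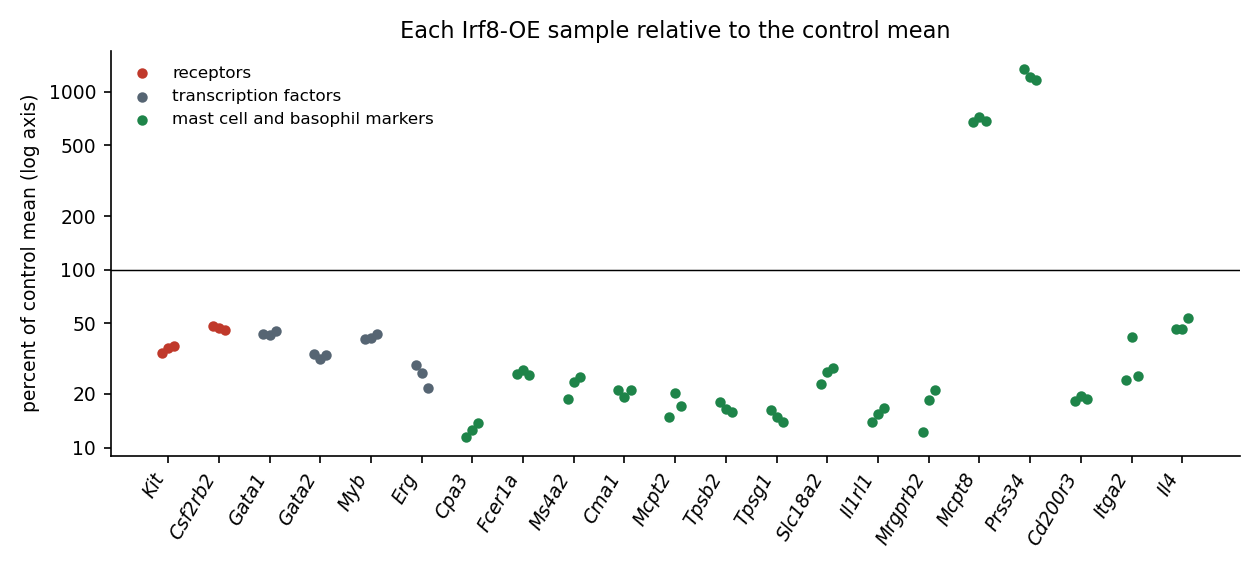
Normalized counts of each Irf8-OE sample (3 points per gene) as a percent of the control mean (vertical axis, logarithmic) for Kit, Csf2rb2, the 4 listed transcription factors and the listed mast cell and basophil markers, with a line at 100. Kit and Csf2rb2 lie above the mast cell markers and below the line, and the basophil proteases Mcpt8 and Prss34 lie above it.

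Basophils are another lineage that answers to IL-3, and their listed markers differed in direction. Of 9 basophil markers 8 were listed, with 6 called lower and 2 higher, where 41.0% of all listed genes were called lower and 58.1% higher. Their summed level was between 8188 and 8327 normalized counts in *Irf8*-OE and between 22055 and 22113 in the controls. Its largest terms in the controls were *Gata2*, *Cd200r3*, *Fcer1a* and *Ms4a2*, with means of 6433, 5303, 5221 and 4693. *Mcpt8* and *Prss34* had control means of 178 and 118, so the sum says little about them. The basophil proteases *Mcpt8* and *Prss34* had log2 differences of 2.79 and 3.64, in the direction opposite to *Kit* and *Csf2rb2*, while the surface receptor *Cd200r3* had -2.41. Of the 6 lower genes, *Fcer1a* and *Ms4a2* are also in the mast cell list and *Gata2* is also in the transcription factor list. Of 15 stem and progenitor markers 6 were listed, with *Myb* and *Gata1* lower and *Hlf*, *Mpo*, *Elane* and *Prtn3* higher. All 6 were called, against 99.1% of all listed genes. Of the 4 higher genes 3 were called after quantile normalization, where *Hlf* had a log2 difference of 0.92, and 3 with edgeR, where *Elane* had 0.85.

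Ratios within a library placed *Kit* beside these genes. The ratio of *Kit* to *Gata2* was 1.24 and 1.18 in the controls and 1.23, 1.41 and 1.37 in *Irf8*-OE, and the groups overlapped. The ratio of *Kit* to *Cpa3* was 0.0461 and 0.0420 in the controls and 0.132, 0.128 and 0.120 in *Irf8*-OE, so that all *Irf8*-OE samples held more *Kit* per *Cpa3*. For *Csf2rb2* and *Gata2* the mean ratio was 5.89 ± 0.16 (SD, n = 2) in the controls and 8.46 ± 0.33 (SD, n = 3) in *Irf8*-OE, and these groups did not overlap.

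**Figure D5:**
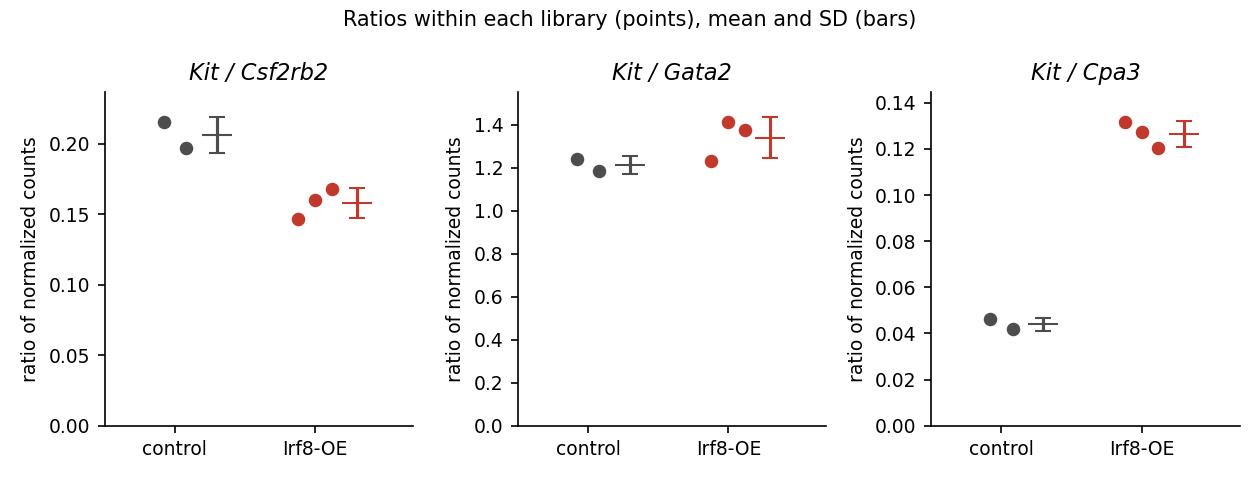
Ratios of normalized counts within each library (vertical axes, linear from 0), Kit to Csf2rb2, Kit to Gata2 and Kit to Cpa3, with each sample as a point and the mean and SD beside them. The groups overlap for Kit to Gata2, Kit to Csf2rb2 is lower in Irf8-OE, and Kit to Cpa3 is higher.

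The genes with the most similar pattern were found by the distance between log2(normalized counts + 1) profiles over the 5 samples, after each profile was centred on its mean, among 611 listed genes with a mean of at least 100 normalized counts. Since all listed genes separate the groups, a small distance mainly says that the size of the difference is alike. Nearest to *Kit* were *Ero1l*, an endoplasmic reticulum oxidase, at 0.084, *Atp8b1*, a phospholipid flippase, at 0.089 and *Il18rap*, an IL-18 receptor chain, at 0.094. *Il18rap* had 2779 and 2660.0 normalized counts in the controls and 864, 961 and 971 in *Irf8*-OE. Nearest to *Csf2rb2* were *Enc1* at 0.043, *Pomt1* at 0.044 and *Padi4* at 0.060. *Kit* and *Csf2rb2* lay 0.45 apart, and *Csf2rb2* ranked 137 by nearness to *Kit* while *Kit* ranked 118 by nearness to *Csf2rb2*.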

How the data were processed

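RNA-seq of 3 *Irf8*-OE and 2 control BMDC samples was read from a deposited table of 1355 genes, those past the authors' thresholds (adjusted p under 0.05, absolute log2 fold change above 1). Genes outside that table are not analysed here. The deposited signal is normalized counts, reads divided by 1 size factor per sample. The submitters' processing notes name fastp, HISAT2 2.0.5, featureCounts 1.5.0-p3, DESeq2 1.20.0, edgeR 3.22.5 and mm10. The table's columns of group means, fold changes and p-values hold the authors' comparison and were not used. *Kit*, *Csf2rb2* and the gene lists were chosen with earlier results of these data known, and ratios other than *Kit* to *Csf2rb2* after their values were seen. Groups and replicate numbers came from the sample titles. Named genes were the listed members of the pathway lists, *Irf8* and, for each receptor gene, the 3 genes nearest in pattern, with defining members of each marker list. Sex-linked genes were added after their values were seen. A member of the receptor lists is not reported here and was left out of their counts.

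In every sample 100% of values were whole multiples of 1 step within 0.01 reads, which gave back the reads. Differences were fitted with limma 3.58.1 under R 4.3.3, using a mean-variance trend in the empirical Bayes step, on log2(normalized counts + 1), with Benjamini-Hochberg adjustment over all listed genes and no covariates. In simulated counts for the 1355 genes, limma recovered 96.5% of 200 changed genes and called 11 of 1155 unchanged ones. These calls used adjusted p below 0.05 without the log2 threshold. The simulation took 1 assumed dispersion and left most genes unchanged, unlike the listed genes, so it does not give the accuracy of calls in these data. Alternatives were pseudocounts of 0.1 and 10, quantile normalization, DESeq2 1.42.0 and edgeR 4.0.16 on recovered reads, a filter of 10 normalized counts, replicate blocks and leaving out each sample. Coding sequences and windows came from GENCODE vM21 transcripts, whose coordinates match the table for both genes, with alignment in Biopython 1.88. Promoter windows were matched by symbol for both genes. Protein sequences were not used here.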

Additional observations from a re-analysis of the deposited data

How the results depend on the processing

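After quantile normalization the log2 fold change of *Kit* was -1.0 and that of *Csf2rb2* 0, and with edgeR on recovered reads they were -1.78 and -1.40. Across all listed genes, quantile normalization moved the median log2 fold change by -0.36, edgeR's TMM by -0.31 and a pseudocount of 10 by -0.15, and the first 2 set the libraries level over the listed genes alone. With each sample left out in turn, *Kit* ranged from -1.52 to -1.42, *Csf2rb2* from -1.10 to -1.07, the log2 ratio of *Kit* to *Csf2rb2* from -0.45 to -0.32, and the listed genes called from 1238 to 1318. Pseudocounts, the filter and DESeq2 moved *Kit* and *Csf2rb2* by less than the spread between replicates. The sample titles and descriptions number the controls differently. Deviations of same-numbered samples from their group means correlated between -0.02 and 0.02 over 611 genes. The deviations of 2 controls mirror each other, so these correlations cannot show whether the samples were prepared in pairs. A replicate block by title numbers, in which the third *Irf8*-OE sample has no partner, gave -1.07 for *Csf2rb2* with 1319 genes called, and a block by description numbers, in which the first has none, gave -1.10 with 1271 called. A sample without a partner adds nothing to a difference fitted within blocks. For *Kit* and *Csf2rb2*, each block therefore gave the same log2 fold change as leaving out its unpartnered sample. The blocks are thus no separate check of these differences. Only listed genes were available, so scaling could not be checked on genes that do not differ.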

Other observations

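Eosinophils, whose growth depends on IL-5 and the beta chain partner of *Il5ra*, had markers that differed in direction. Of 8 eosinophil markers 5 were listed, with *Siglecf*, *Ccr3* and *Il5ra* called lower and the granule genes *Epx* and *Prg3* called higher. Of all listed genes, 41.0% were called lower and 58.1% higher. *Epx*, eosinophil peroxidase, had 91.2 ± 13.3 (SD, n = 3) normalized counts with *Irf8* overexpression. Both controls were at 0 reads, so against a floor of 3 reads per control library it was at least 29.2-fold higher. *Siglecf*, a lectin of eosinophils and some macrophages, fell from 622 ± 18.8 (SD, n = 2) to 181 ± 9.69 (SD, n = 3).

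Of 10 macrophage markers 6 were listed and all 6 were called higher, where 58.1% of all listed genes were called higher, with a summed level between 22635 and 27305 normalized counts in *Irf8*-OE and between 4557 and 4738 in the controls. Of 8 B lineage markers 5 were listed, all called higher (2 of them after quantile normalization), with sums between 429 and 458 in *Irf8*-OE and between 37.1 and 43.2 in the controls.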
